A study of Mus musculus with 10 samples.

Results

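Sarcomas of 2 mouse models were examined for 10 genes of the regulator of G protein signaling (RGS) family: Rgs2, Rgs3, Rgs4, Rgs5, Rgs8, Rgs10, Rgs16, Rgs17, Rgs19 and Rgs20. They are 10 of the 56750 features of a bulk RNA-seq count table and were taken from it by symbol, from a list drawn up with results of these same tumors in view. Their difference between the tumor types is therefore given as a description, with an error and no p-value. The dFLEx group was 3 tumors (170019, 170024 and 170025) from heterozygous dFLEx CDS mice (dFLEx CDS +/-). These mice carry an HA-tagged CIC::DUX4 fusion at Rosa26 that is read in frame only after recombination by both Cre and FLPE. Per the study's methods, the gastrocnemius of mice aged 6 to 12 weeks was electroporated with pCAG-FLPE and pCAG-Cre, and no driver restricted the recombinases to 1 cell type. The KP group was 2 sarcomas (3800 and 3802) of the genotype KRASloxP-STOP-loxP-G12D; p53fl/fl. For the KP mice, the age, the site of the tumor and the way Cre was delivered are not given in the sources used here. No treatment is labelled for either group.

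RGS proteins switch off signals from G protein-coupled receptors. An activated receptor makes the G alpha subunit exchange GDP for GTP, which frees G alpha and the G beta-gamma dimer to act on adenylyl cyclases, phospholipase C beta and ion channels. The RGS domain binds active G alpha and speeds its hydrolysis of GTP, so that the subunits come together again. The listed genes fall into 3 subfamilies, and 6 of the 10 lie on chromosome 1. Rgs2, Rgs3, Rgs4, Rgs5, Rgs8 and Rgs16 belong to R4, whose small members act mainly on the Gi and Gq classes. Rgs10 belongs to R12. Rgs17, Rgs19 and Rgs20 belong to RZ, whose members bear a cysteine string and act on Gz and other Gi-class subunits. In vessel walls, Rgs5 is a widely used marker of pericytes, the contractile cells that wrap capillaries.

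Rgs17 was low in every dFLEx tumor, and Rgs5 was the most abundant Rgs gene per length in all 3. The 250 bases upstream of their annotated starts are shown because these starts differ in composition, with CpG dinucleotides in capitals. The sequences are from RefSeq on build GRCm38.p6, read 5′ to 3′ on the strand of the gene. The Rgs17 stretch is chr10:5922401-5922650 on the minus strand, and the Rgs5 stretch is chr1:169655251-169655500 on the plus strand.
Rgs17: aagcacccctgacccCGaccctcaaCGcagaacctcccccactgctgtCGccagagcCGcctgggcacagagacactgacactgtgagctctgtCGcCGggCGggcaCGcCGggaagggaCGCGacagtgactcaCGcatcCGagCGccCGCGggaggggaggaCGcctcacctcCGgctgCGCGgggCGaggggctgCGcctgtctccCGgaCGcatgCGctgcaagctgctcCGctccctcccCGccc
Rgs5: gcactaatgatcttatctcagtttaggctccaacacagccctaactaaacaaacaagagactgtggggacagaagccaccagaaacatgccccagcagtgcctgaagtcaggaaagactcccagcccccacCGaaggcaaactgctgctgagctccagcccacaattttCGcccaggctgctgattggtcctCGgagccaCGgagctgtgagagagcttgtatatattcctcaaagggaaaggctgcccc
The Rgs17 stretch held 27 CpG dinucleotides at 72.4% G and C, and the Rgs5 stretch held 4 at 53.6%. Promoter windows from 250 bases before to 50 bases after a start were found for 9 of the 10 genes, 14 windows in all, and Rgs20 had none. Their G and C content ran from 49.7% (Rgs3) to 76.0% (Rgs10), against a median of 52.7% over all 32851 windows. Both strands of the windows were searched for the octamers that CIC binds, TGAATGAA and TGAATGGA, and for the ETS-type motif CCGGAAGT. None of the 14 windows held any of the 3, which are present in 1.30%, 1.21% and 3.89% of all windows. The result says only that these letters are not in these windows.

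The labels name 10 libraries, 2 per tumor made from divided RNA. A column was used for 9 of them, 6 from dFLEx and 3 from KP tumors, and 3802 was represented here by its first library alone. Library totals ran from 20503474 to 46302223 counts, with the lowest total in the only library of 3802. That library nevertheless had counts for the most features, 36904, against 24280 to 31768 in the others. Counts over 1547 olfactory and vomeronasal receptor genes, which sarcomas are not known to use, reached 0.106 CPM (counts scaled to a common library size) per kilobase in 3802 and 0.00278 to 0.0239 in the other tumors. The CIC::DUX4 transgene was at 105, 201 and 423 CPM in tumors 170019, 170024 and 170025, at 0 in 3800 and at 0.243 CPM in 3802. Levels below are CPM after TMM scaling of counts summed over the libraries of a tumor, and the tumor was the replicate (3 dFLEx, 2 KP). In these bulk tumors, fewer cells of a type and less RNA per cell cannot be told apart.

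All 10 genes had enough counts to be fitted. In all 3 dFLEx tumors Rgs5 and Rgs20 exceeded both KP tumors, Rgs17 and Rgs2 were lower in every dFLEx tumor, and for the other 6 genes the groups overlapped. Of all 24743 genes fitted, 13.8% were higher in this complete way and 11.6% were lower. The fitted log2 fold change (dFLEx against KP) was above 0 for 3 genes and below 0 for 7, with a median of −0.41. Over all fitted genes 43.7% were above 0, 56.3% were below, and the median was −0.18. At a Benjamini-Hochberg threshold of 0.05 the quasi-likelihood test of edgeR called 1 of the 10, Rgs17, and 45 of all fitted genes (0.182%). Without 170019, 170024 or 170025 it called 0 of the 10, and 0, 0 and 9 of all genes. With all tumors kept but only the first library of each, it called 67 genes, Rgs17 not among them. Rgs17 was called with DESeq2 on tumor sums, with the other scalings and filters tried, and with libraries as samples. Since the list was chosen on this contrast, nothing is read from these counts.

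**Figure D1:**
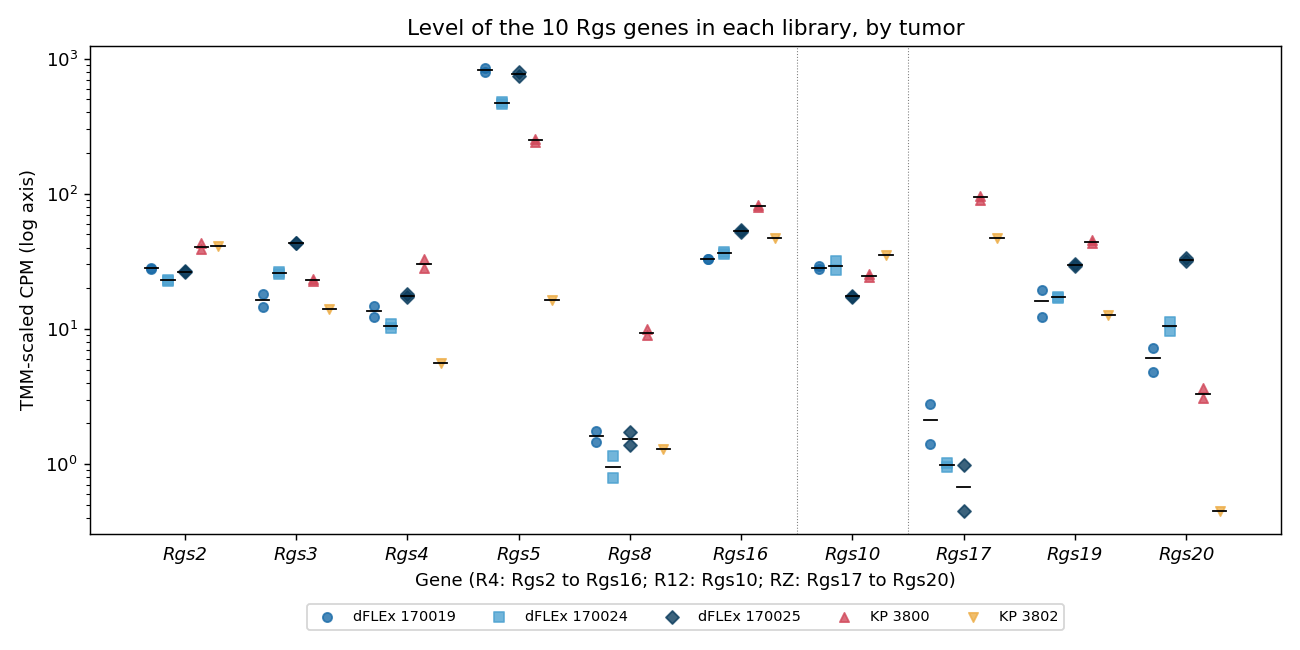
TMM-scaled CPM (log axis) of the 10 Rgs genes in each library, with a symbol and color for each tumor; the black bar is the level of the summed counts of the tumor. Rgs17 lies between 0.447 and 2.76 CPM in the dFLEx libraries and at 47.4 CPM or more in the KP libraries, Rgs5 and Rgs20 are above KP in every dFLEx library, and libraries of a tumor differ most for Rgs17.

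Among the R4 genes, Rgs5 was the most abundant. It was at 825, 472 and 776 CPM in tumors 170019, 170024 and 170025, and at 249 and 16.5 CPM in the KP tumors 3800 and 3802. All 3 dFLEx tumors were above both KP tumors, and the lowest of them was 1.90-fold above the higher KP tumor. The means were 691 ± 191 CPM (SD, n = 3) and 133 ± 164 CPM (SD, n = 2), and the fitted log2 fold change was 2.38 (SE 1.05). The KP tumors differed 15.1-fold from each other, far more than the 1.75-fold range of the dFLEx tumors. The size of the difference therefore turned on the KP tumor used: without 3802 the log2 fold change was 1.49, and without 3800 it was 5.55.

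Rgs4 is the chromosomal neighbour of Rgs5 and, like it and Rgs16, makes a protein known to be degraded through its N-terminal cysteine. The genes lie on opposite strands of chromosome 1 with 45664 bases between them (GRCm39, Rgs5 at chr1:169483070-169523382 and Rgs4 at chr1:169569046-169575211). Rgs4 was at 13.5, 10.5 and 17.6 CPM in the dFLEx tumors and at 30.2 and 5.58 CPM in 3800 and 3802. The dFLEx tumors lay between the KP tumors, so Rgs4 did not follow the order seen for Rgs5. Its log2 fold change was −0.37 (SE 0.77), and without 3800 it was 1.47.

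Rgs2, which acts chiefly on Gq and restrains contraction of vascular smooth muscle, was at 28.1, 22.8 and 26.6 CPM in the dFLEx tumors. It was at 40.6 and 41.2 CPM in 3800 and 3802. Every dFLEx tumor was below both KP tumors, by a smaller margin than for Rgs17: the lower KP tumor was 1.45-fold above the highest dFLEx tumor. Rgs2 was also the steadiest of the 10 genes within groups, with a coefficient of variation between tumors of 10.5% in dFLEx and 0.940% in KP. The means were 25.8 ± 2.71 CPM (SD, n = 3) and 40.9 ± 0.385 CPM (SD, n = 2). The log2 fold change was −0.67 (SE 0.53), and it stayed between −0.78 and −0.52 with each tumor left out in turn. The gene is at chr1:143875076-143879899 on the minus strand (GRCm39).

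Rgs16, a regulator of Gi and Gq that many cells induce after stimulation, was at 32.8, 36.7 and 53.1 CPM in the dFLEx tumors and at 81.0 and 47.0 CPM in 3800 and 3802. Tumor 170025 was above 3802, so the groups overlapped. The log2 fold change was −0.65 (SE 0.57), and it was −0.04 without 3800. A share of 10.1% of the exonic bases of Rgs16 also belongs to Gm28513 on the other strand. Strand was ignored in the counting and reads over 2 genes were not counted, so reads in that stretch do not enter the level of Rgs16.

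Rgs8, best known from cerebellar Purkinje cells, lies 40026 bases from Rgs16 on the same strand (GRCm39, Rgs8 at chr1:153528771-153576069 and Rgs16 at chr1:153616095-153621214). It was at 1.62, 0.953 and 1.54 CPM in the dFLEx tumors, from 65, 55 and 122 counts. It was at 9.39 CPM in 3800 (699 counts) and at 1.29 CPM in 3802 (32 counts). Only 3800 was high, and 3802 lay within the range of the dFLEx tumors. The background per kilobase over receptor genes equals 79.0% of the level of Rgs8 in 3802, against 1.74% to 15.2% in the dFLEx tumors and 0.62% in 3800. The log2 fold change of −1.97 (SE 0.90) was 0.24 without 3800.

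Rgs3 encodes several isoforms, the longer of which carry extra domains ahead of the RGS domain. It was at 16.4, 26.1 and 43.2 CPM in the dFLEx tumors and at 23.2 and 14.2 CPM in 3800 and 3802. The dFLEx tumors differed 2.63-fold and 170019 was below 3800, so the groups overlapped. The log2 fold change was 0.61 (SE 0.66), from 0.18 (without 170025) to 1.18 (without 3800) with a tumor left out. Rgs3 is at chr4:62478084-62622238 on the plus strand (GRCm39), with the longest exonic length of the 10 genes, 10801 bases.

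Rgs10 (chr7:127975345-128020482, GRCm39), the R12 member, is a small protein abundant in macrophages, microglia and other immune cells. It was at 28.4, 29.2 and 17.4 CPM in the dFLEx tumors and at 24.8 and 35.5 CPM in 3800 and 3802. The groups overlapped, with a log2 fold change of −0.27 (SE 0.58) that was 0.03 without 3802. Summed markers of macrophages were 1265, 1237 and 1062 CPM in the dFLEx tumors and 2634 and 5284 CPM in the KP tumors. Of those 8 macrophage markers, 6 were lower in every dFLEx tumor, as were 11.6% of all fitted genes. None of the markers was at 0 in any tumor, and their part in the levels of Rgs10 was not tested.

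Of the RZ genes, Rgs17 showed the widest gap. Its protein, also called RGSZ2, is known from brain and from several carcinomas. In the dFLEx tumors it was at 2.11, 0.988 and 0.680 CPM, from 85, 57 and 54 counts. In the KP tumors it was at 94.2 CPM in 3800 (7018 counts) and 47.4 CPM in 3802 (1172 counts). All dFLEx tumors were below both KP tumors, and the lower KP tumor was 22.4-fold above the highest dFLEx tumor. The means were 1.26 ± 0.754 CPM (SD, n = 3) and 70.8 ± 33.1 CPM (SD, n = 2), a 56.2-fold ratio, and the fitted log2 fold change was −5.82 (SE 0.79). With each tumor left out in turn it stayed between −6.43 and −5.09.

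Counting limits the dFLEx level of Rgs17 more than the gap. Wilson 95% intervals were 1.71 to 2.61 CPM in 170019, 0.762 to 1.28 CPM in 170024 and 0.521 to 0.887 CPM in 170025. These cover counting error only, and since both mates of a pair were counted the true counting error is larger. The 2 libraries of 170019 gave 2.76 and 1.40 CPM, and those of 170025 gave 0.447 and 0.981 CPM, while those of 170024 gave 1.01 and 0.957 CPM. Tumor 170019 was the highest in both of its libraries, and 170024 and 170025 could not be ordered within the spread of duplicates. The receptor gene background equals 3.39% to 12.7% of the dFLEx levels of Rgs17, so most of its counts lie above that background. The gene (ENSMUSG00000019775) is at chr10:5775663-5872400 on the minus strand (GRCm39), and none of its 8298 exonic bases is shared with another gene.

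Rgs20, or RGSZ1, is the closest relative of Rgs17 and acts on Gz. Its difference between the groups ran in the opposite direction to that of Rgs17. It was at 6.09, 10.5 and 32.6 CPM in the dFLEx tumors, from 245, 608 and 2589 counts. It was at 3.32 CPM in 3800 (247 counts) and 0.445 CPM in 3802 (11 counts, Wilson 95% interval 0.248 to 0.797 CPM). Even 170019, the lowest of the dFLEx group, was 1.84-fold above the higher KP tumor, and 170025 was far above the other dFLEx tumors, which makes a 5.35-fold range within that group. The means were 16.4 ± 14.2 CPM (SD, n = 3) and 1.88 ± 2.03 CPM (SD, n = 2), with a log2 fold change of 3.10 (SE 1.14). It was 2.13 without 170025 and 5.37 without 3800. The receptor gene background equals 101.1% of the level of Rgs20 in 3802, so no expression above background was detectable there. Rgs20 is at chr1:4979799-5140508 on the minus strand (GRCm39), and 5.9% of its exonic bases are shared with Gm17101 and Atp6v1h on the other strand.

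Rgs19 (chr2:181330212-181335770, GRCm39), the third RZ gene, is expressed widely and was first described as a partner of G alpha i3. It was at 15.985, 17.1 and 29.5 CPM in the dFLEx tumors and at 44.3 and 12.6 CPM in 3800 and 3802. The dFLEx tumors lay between the KP tumors. The log2 fold change was −0.45 (SE 0.70), and it was 0.89 without 3800. Thus the 3 RZ genes differed in order: Rgs17 was lower in dFLEx, Rgs20 was higher and Rgs19 overlapped.

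**Figure D2:**
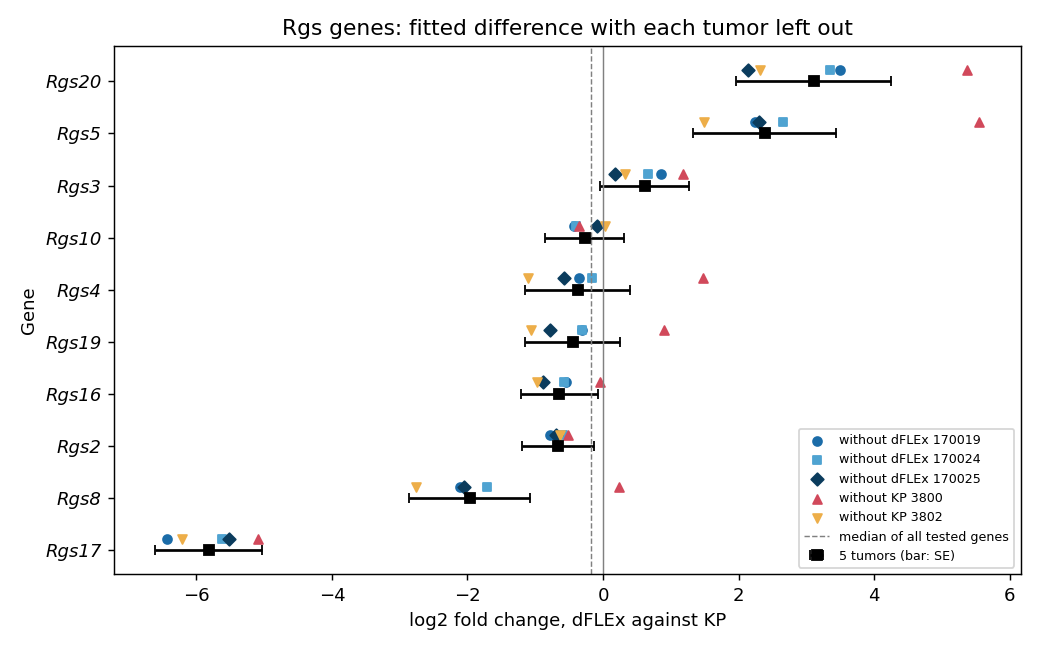
Fitted log2 fold change of each Rgs gene, dFLEx against KP, with its SE (black) and the value with each tumor left out (colored symbols above); the dashed line is the median of all fitted genes, −0.18. Rgs17 stays at −5.09 or below and Rgs5 and Rgs20 stay above 0, while Rgs4, Rgs8 and Rgs19 pass to above 0 without 3800 and Rgs10 reaches 0.03 without 3802.

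For most of these genes the spread between tumors exceeded the spread between libraries of a tumor. The coefficient of variation between duplicates had a median of 4.11% over the 10 genes and 4 tumors with 2 libraries (0.344% to 52.9%, the highest for Rgs17 in 170025). Between tumors the median was 27.1% in dFLEx and 62.8% in KP. The KP tumors thus varied more between themselves, and 3800 was above 3802 for 8 of the 10 genes, against 46.3% of all fitted genes. Among dFLEx tumors, 170025 was highest for 5 of the 10 (38.6% of all fitted genes).

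Levels of different genes can be compared per kilobase of exon, and neighbours in the order are said to differ beyond their spread where the gap exceeded the sum of their SDs. Rgs5 led the dFLEx tumors at 152 ± 42.1 CPM per kilobase, beyond the spread of the next gene. Rgs16 (17.5 ± 4.62), Rgs10 (14.6 ± 3.84), Rgs19 (9.35 ± 3.37) and Rgs2 (7.12 ± 0.748) followed, each within the spread of its neighbour. Rgs4 (4.47 ± 1.15) was below Rgs2 beyond the spread, and it lay within the spread of Rgs20 (3.87 ± 3.35), as did Rgs3 (2.65 ± 1.26). Rgs17 (0.152 ± 0.0909) and Rgs8 (0.142 ± 0.0375) came last, below Rgs3 beyond the spread and not apart from each other. In KP tumors the order was Rgs5 (29.2 ± 36.1), Rgs16 (27.3 ± 10.3), Rgs10 (17.6 ± 4.39), Rgs19 (12.8 ± 10.1), Rgs2 (11.3 ± 0.106), Rgs17 (8.53 ± 3.99), Rgs4 (5.77 ± 5.61), Rgs3 (1.73 ± 0.590), Rgs8 (0.554 ± 0.594) and Rgs20 (0.444 ± 0.479). With 2 KP tumors, no neighbours in that order differed beyond their spread.

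Rgs5 made up most of the Rgs message of the dFLEx tumors. Summed over 21 Rgs genes, the level was 241, 166 and 257 CPM per kilobase in tumors 170019, 170024 and 170025, and Rgs5 was 75.4%, 62.4% and 66.3% of it. In 3800 it was 31.8% of 172 CPM per kilobase, and in 3802 it was 4.06% of 89.2. Rgs10 (23.3%) and Rgs16 (22.5%) took the largest shares in 3802. Without Rgs5 the sums were 59.4, 62.5 and 86.6 CPM per kilobase in the dFLEx tumors and 117 and 85.6 in 3800 and 3802, so without Rgs5 the sum of each dFLEx tumor was below that of 3800. With Rgs5 the groups overlapped too, since 170024 was below 3800. Rgs17 was 0.0319% to 0.106% of the sum in dFLEx tumors and 6.61% and 6.41% in the KP tumors.

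**Figure D3:**
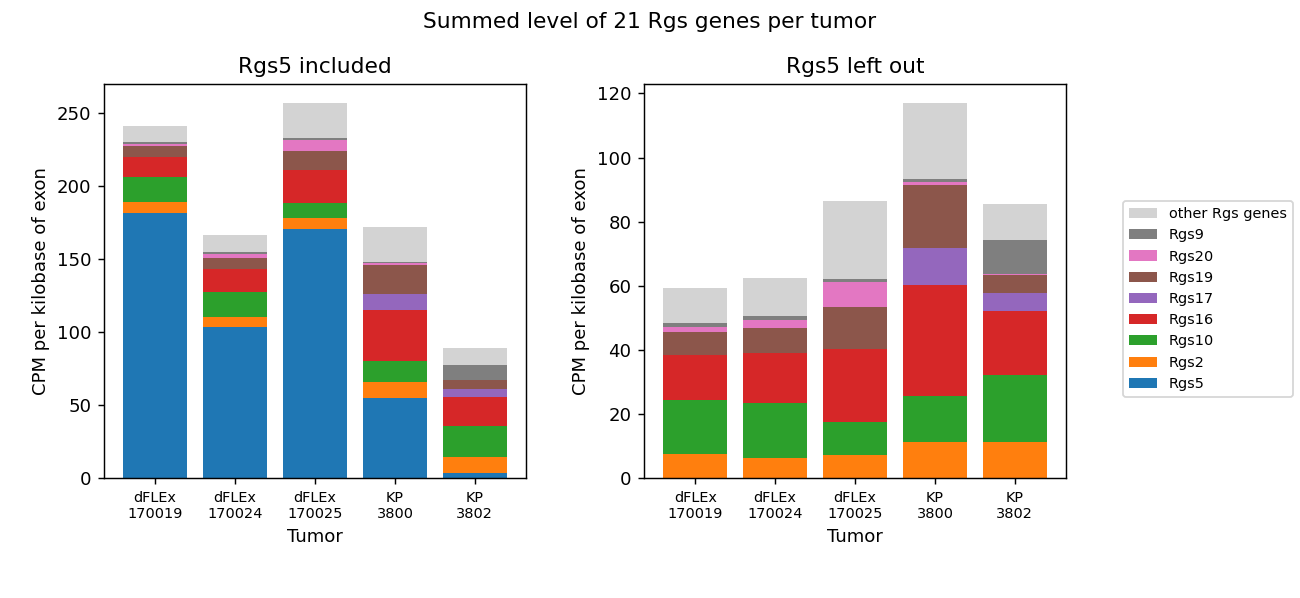
Summed level of 21 Rgs genes per tumor in CPM per kilobase of exon, stacked by gene, with Rgs5 (left) and without it (right, on its own axis). Rgs5 is the largest block in each dFLEx tumor, and without it tumor 3800 has the highest sum, 117.

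Because Rgs5 marks pericytes, its level was set beside markers of vessel cells. The sum of 10 pericyte and smooth muscle markers was 333, 292 and 753 CPM in the dFLEx tumors and 534 and 430 CPM in the KP tumors, so these sums overlapped while Rgs5 did not. Rgs5 over that sum was 2.48, 1.62 and 1.03 in the dFLEx tumors and 0.466 and 0.0383 in 3800 and 3802. The smooth muscle actin gene Acta2 alone, at 87.5 to 252 CPM in dFLEx and 306 and 310 CPM in KP, was a large part of the sum. Of the 10 markers, 6 had a log2 fold change above 0 and 4 below. In every dFLEx tumor 2 were higher and 2 (Acta2 and Cnn1) lower, against 13.8% and 11.6% of all fitted genes. The 2 higher markers were Kcnj8 and Mcam: Kcnj8, a pericyte potassium channel subunit, was at 30.0, 18.8 and 21.4 CPM against 6.65 and 4.61 CPM, and Mcam, an adhesion molecule of vessel walls, at 76.0, 62.3 and 142 against 49.0 and 21.5 CPM. Cnn1, a protein of the contractile apparatus of smooth muscle, was at 4.05, 2.60 and 4.46 CPM against 8.19 and 16.3 CPM. Pdgfrb, the defining pericyte receptor, was at 41.4, 62.0 and 141 CPM in dFLEx and 46.9 and 33.9 CPM in KP tumors. Rgs5 over Pdgfrb alone was 19.96, 7.62 and 5.49 in the dFLEx tumors, 5.30 in 3800 and 0.486 in 3802, so on this scale 3800 came close to 170025. These 5 markers were picked out after their values were seen.

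The summed level of endothelial markers was, like Rgs5, higher in each dFLEx tumor than in both KP tumors. Over 8 genes it was 367, 476 and 811 CPM in the dFLEx tumors and 233 and 142 CPM in the KP tumors. All 8 fitted log2 fold changes were above 0, but only 4 of these markers separated the groups (13.8% of all fitted genes were higher in this way). The other endothelial markers overlapped, each with a higher level in 3800 than in 170019. Rgs5 over the endothelial sum was 2.25, 0.992 and 0.957 in the dFLEx tumors, 1.07 in 3800 and 0.116 in 3802, so on this scale 3800 fell among the dFLEx tumors. No marker of either list was at 0 in any tumor. The part of vessel cells in the level of Rgs5 was not tested.

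**Figure D4:**
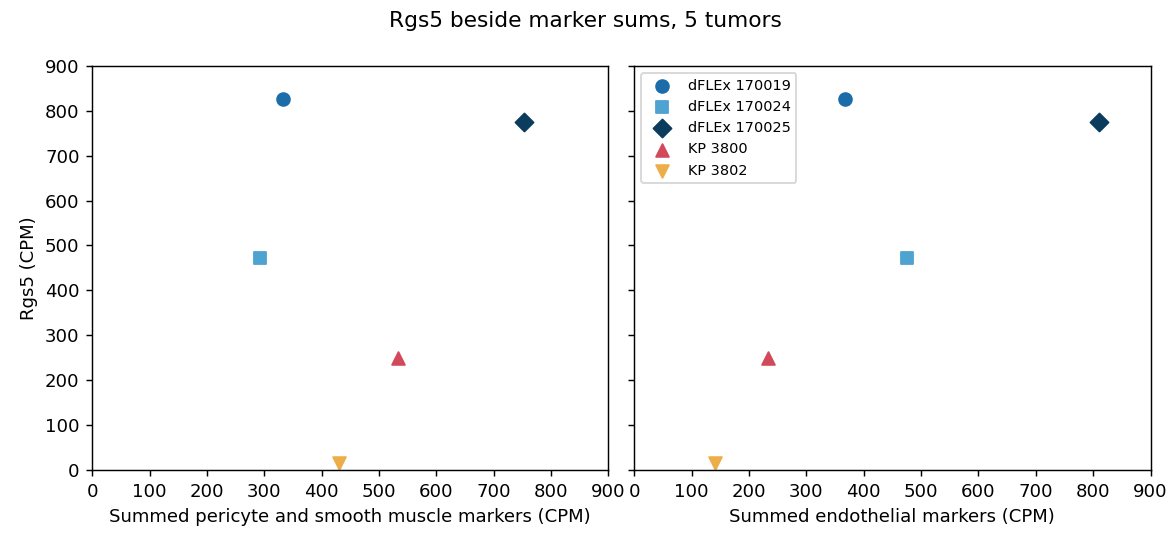
Level of Rgs5 (CPM) against the summed pericyte and smooth muscle markers (left) and endothelial markers (right) in the 5 tumors. On the left the dFLEx tumors lie above the KP tumors across overlapping marker sums, and on the right both Rgs5 and the marker sum are higher in each dFLEx tumor than in either KP tumor.

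Marker sums of some further cell types also stood apart between the groups, and their part in the levels of the Rgs genes was not tested. Summed myocyte markers were 7742, 30830 and 8505 CPM in the dFLEx tumors and 1470 and 3846 CPM in the KP tumors. Of the 8 myocyte markers, 5 were higher in every dFLEx tumor and the others overlapped. Fibroblast sums were 2547, 4916 and 8812 against 2440 and 1617 CPM, so 170019 lay close to 3800. Of the 6 fibroblast markers, only 2 were higher in every dFLEx tumor and the others overlapped. Chondrocyte sums were 591, 929 and 1874 against 157 and 173 CPM. Of the 6 chondrocyte markers, 5 were higher and 1 (Sox9) was lower in every dFLEx tumor. Over all fitted genes 13.8% were higher and 11.6% lower in this way. Sox9 was at 34.5, 61.3 and 68.4 CPM against 154.8 and 131.5 CPM, and it made up most of the chondrocyte sums of the KP tumors. T and NK cell sums were 12.4, 11.5 and 7.76 against 37.6 and 92.3 CPM, with 6 of the 8 markers lower in every dFLEx tumor. Sums for B and plasma cells (3.84 to 7.59 against 3.57 and 71.8 CPM), neutrophils (6.94 to 53.2 against 6.55 and 38.4 CPM), mast cells (50.5 to 67.6 against 35.01 and 91.0 CPM), megakaryocytes and platelets (33.7 to 55.4 against 18.5 and 103 CPM), and Schwann cells and neurons (25.3 to 51.1 against 34.7 and 30.8 CPM) overlapped. Markers at 0 were the platelet genes Gp1bb in every tumor and Gp9 in both KP tumors, and the neuronal gene Elavl4 in 170025.

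The rest of the RGS-domain family was read from a list of 20 genes and anchors, of which 18 had enough counts (Rgs13 and Rgs21 did not). None passed the adjusted threshold in edgeR's test, 6 of the 18 had an unadjusted p under 0.05 (10.6% of all fitted genes did), and DESeq2 called 0 of the 17 to which it gave an adjusted p (6.66% of all such genes). Log2 fold changes were above 0 for 7 genes and below 0 for 11, with a median of −0.73. In every dFLEx tumor 2 of the genes (Rgs7bp and Rgs7) were above, and 4 (Rgs14, Axin2, Rgs1 and Rgs18) below, both KP tumors. Of all fitted genes, 13.8% were above and 11.6% below in this way. Rgs14, a member of R12 that can also hold inactive G alpha, was at 3.95, 3.64 and 4.33 CPM in the dFLEx tumors and 10.7 and 12.98 CPM in the KP tumors. Its groups did not overlap, with a log2 fold change of −1.58 (SE 0.57, edgeR adjusted p = 0.365). Axin2, a Wnt target that scaffolds the destruction of beta-catenin, was at 2.98, 3.47 and 5.98 against 7.48 and 25.8 CPM (log2 fold change −2.01, SE 0.72, edgeR adjusted p = 0.366), and without 3802 its log2 fold change was −0.83.

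The R7 subfamily, which works with the beta subunit Gnb5 and the anchor Rgs7bp, gave uneven values. Rgs7bp was at 6.54, 14.04 and 30.9 CPM in the dFLEx tumors and 1.40 and 5.06 CPM in the KP tumors (log2 fold change 2.42, SE 0.94, edgeR adjusted p = 0.412; 3.63 without 3802). Gnb5 was at 5.12, 8.01 and 6.94 CPM against 29.4 and 9.22 CPM (log2 fold change −1.53, SE 0.67, edgeR adjusted p = 0.483), and without 3800 its log2 fold change was −0.31. Rgs9, known from photoreceptors and striatum, was at 67.7 CPM in 3802 and at 5.49 to 8.91 CPM in the other 4 tumors, and its log2 fold change of −2.34 (SE 0.94, edgeR adjusted p = 0.422) was 0.41 without 3802. Rgs7 itself was at 3.60, 2.60 and 31.2 CPM against 0.806 and 2.18 CPM (edgeR adjusted p = 0.452), a gene chosen after its values were seen. The remaining R7 genes, Rgs6 (log2 fold change 0.48, SE 1.14) and Rgs11 (0.28, SE 0.88), overlapped between the groups. None of these genes passed the threshold in the edgeR fit.

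Of 70 genes of the G protein pathway in 5 lists, 66 were fitted. None passed the adjusted threshold in edgeR's test, 10 of the 66 had an unadjusted p under 0.05 (10.6% of all fitted genes did), and DESeq2 called 4 (Plcb4, Adcy4, Adcy2 and Kcnj6) of the 62 to which it gave an adjusted p (6.66% of all such genes). Their log2 fold changes were above 0 for 27 and below 0 for 39, and the median of −0.17 was close to that of all genes, −0.18. In every dFLEx tumor 10 of the 66 were above, and 7 below, both KP tumors. Over all fitted genes the shares were 13.8% and 11.6%.

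Among the G alpha subunits that RGS proteins act on, summed levels overlapped (1098 to 1499 CPM in dFLEx, 1306 and 1232 CPM in KP). Gnaq, the Gq subunit that activates phospholipase C beta and a substrate of Rgs2, was at 70.2, 134 and 156 CPM in the dFLEx tumors and 55.1 and 31.5 CPM in the KP tumors (log2 fold change 1.47, SE 0.64, edgeR adjusted p = 0.475). Gna14, of the Gq class, was at 1.04 to 3.01 CPM against 0.604 and 0.849 CPM (edgeR adjusted p = 0.618). Gna13, of the G12 class, was at 42.2, 55.0 and 89.9 CPM against 98.6 and 380 CPM (log2 fold change −1.95, SE 0.71, edgeR adjusted p = 0.369; −0.65 without 3802). Gna15, the Gq-class subunit of blood cells, was at 1.44 to 3.43 CPM against 7.39 and 5.501 CPM (edgeR adjusted p = 0.544). All 4 genes were separated between the groups without passing the threshold in the edgeR fit.

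Among beta and gamma subunits, Gnb4 was at 453, 228 and 467 CPM in the dFLEx tumors and 177 and 66.5 CPM in the KP tumors (log2 fold change 1.65, SE 0.68, edgeR adjusted p = 0.444). The gamma subunits Gng7 (2.51, SE 1.07) and Gng8 (2.00, SE 1.40) had log2 fold changes above 0 with overlapping groups. With each tumor left out these ran from 1.59 to 4.00 for Gng7 and from 0.79 (without 170019) to 6.09 (without 3802) for Gng8, and for Gnb4 from 1.13 (without 3802) to 2.68 (without 3800). The 4 named genes among activators and exchange factors all overlapped, with log2 fold changes of −0.77 for Ccdc88a, −0.64 for Gpsm2, 0.61 for Gpsm1 and 0.83 for Ric8b, and without a single KP tumor they came to −0.090 for Ccdc88a (3800), 0.93 for Gpsm2 (3800), −0.015 for Gpsm1 (3802) and 0.16 for Ric8b (3802). Of the kinases and arrestins that silence active receptors, Grk3 was at 13.9, 17.4 and 76.9 CPM against 5.90 and 6.59 CPM (log2 fold change 2.53, SE 0.93, edgeR adjusted p = 0.374), which was 1.31 without 170025. Arrb2, or beta-arrestin 2, was at 49.9, 54.8 and 35.6 CPM against 81.0 and 176 CPM (log2 fold change −1.46, SE 0.58, edgeR adjusted p = 0.422), which was −0.78 without 3802. Arrb1 (0.90, SE 0.73) and Sag, the visual arrestin (−1.81, SE 1.05), overlapped, with log2 fold changes of 0.24 without 170025 and −0.38 without 3802.

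The effectors held the lowest p-values of the pathway lists. Adcy2, an adenylyl cyclase that G beta-gamma can stimulate, was at 20.1, 30.7 and 71.0 CPM in the dFLEx tumors and 4.67 and 3.52 CPM in the KP tumors (log2 fold change 3.30, SE 0.80, edgeR adjusted p = 0.169). Adcy4, a cyclase of the same group, was at 25.8, 23.0 and 44.5 CPM against 3.99 and 5.58 CPM (log2 fold change 2.699, SE 0.68, edgeR adjusted p = 0.182). Both were separated between the groups, and neither passed the threshold in edgeR's test. DESeq2 called both, at adjusted p = 0.00105 for Adcy2 and 0.0065 for Adcy4, and edgeR with no filter called Adcy2 (adjusted p = 0.0152). Adcy8, a cyclase stimulated by calcium, was at 0.323, 0.156 and 0.0630 CPM against 0.859 and 2.55 CPM (log2 fold change −3.24, SE 1.16, edgeR adjusted p = 0.362). Its dFLEx levels were near the floor, since 3 counts correspond to 0.0648 to 0.146 CPM in single libraries. The level of Adcy8 in 3802 was not set against the receptor gene background, which was highest there. Without 3802 its log2 fold change was −2.25. Plcb4, a phospholipase C beta, was at 73.1 CPM in 3800 and at 2.49 to 8.55 CPM elsewhere (log2 fold change −2.87, SE 1.01, edgeR adjusted p = 0.345), and without 3800 its log2 fold change was −0.056. DESeq2 called Plcb4 too (adjusted p = 0.0357), as did edgeR with no filter (adjusted p = 0.026).

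**Figure D5:**
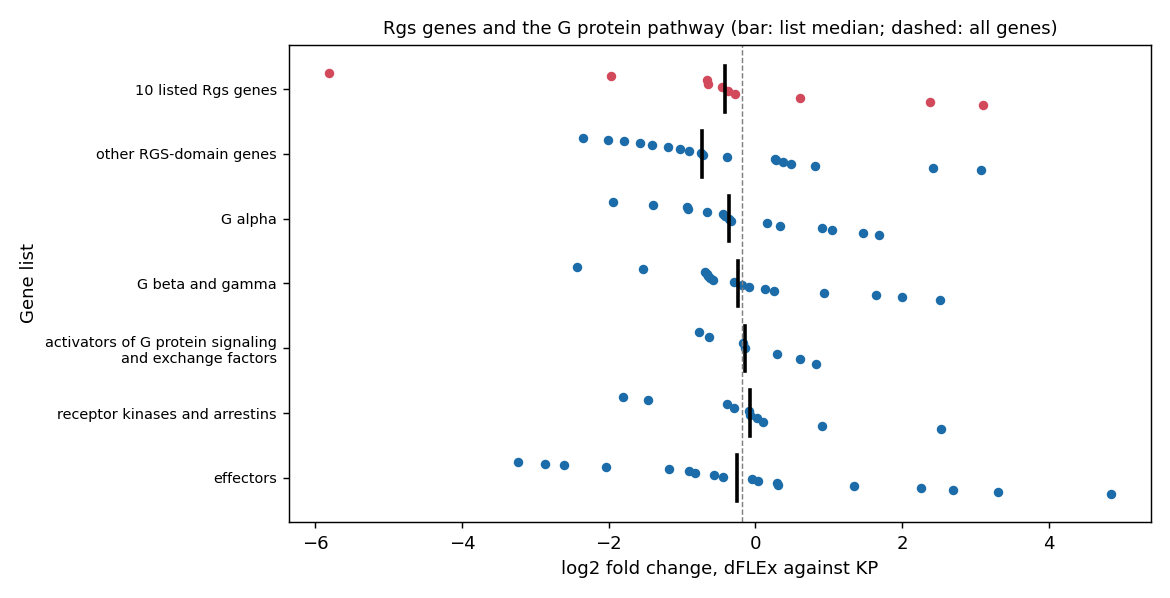
Fitted log2 fold changes, dFLEx against KP, of the 10 Rgs genes (red) and of the other RGS-domain genes and G protein pathway lists (blue), 1 point per gene; the black bar is the list median and the dashed line is the median of all fitted genes, −0.18. Rgs17 at −5.82 is the lowest point of the plot, and the list medians lie between −0.73 and −0.08.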

How the data were processed

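Flash-frozen tumors gave RNA that was divided in duplicate and made into paired-end, rRNA-depleted libraries. The authors trimmed reads with Trimmomatic (0.39), aligned them with STAR (2.7.10a) to mm39 plus the construct, and deposited raw counts per gene from featureCounts (Subread 2.0.3). Per the file headers, strand was ignored, each mate was counted, and reads with several alignments or over several genes were not. The deposited counts are not normalized. Symbols were joined by Ensembl identifier (56017 of 56750 features, 98.7%), and coordinates are GRCm39.

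Counts were summed per tumor, filtered with filterByExpr, scaled by TMM and fitted with edgeR (4.0.16, R 4.3.3) glmQLFit and glmQLFTest, with Benjamini-Hochberg adjustment over all genes and a threshold of 0.05. The SE is the absolute log2 fold change over the square root of F. Separate mice are not stated beyond the tumor numbers, so p-values measure the spread between these tumors. The fit was also run on simulated counts with the same spread for every gene, so that run does not bear on the calls in these tumors. The members and lists were chosen with earlier results of these data known. All members are named. Of each other list, the 4 genes with the smallest p and a mean of at least 0.5 CPM are named, with any gene past the threshold, and marker genes are given by list sums. Kcnj8, Mcam, Acta2, Cnn1, Pdgfrb, Sox9, Rgs6, Rgs7, Rgs11 and genes named beside a count fall outside that rule. DESeq2 (1.42.0), other scalings and filters, libraries as samples, 1 library per tumor and each tumor left out were tried. The study names DESeq2, with no statement on its handling of duplicates. Protein sequences were not used here. Reads are not independent molecules, and a count of 3 corresponds to 0.0648 to 0.146 CPM in single libraries.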

Additional observations from a re-analysis of the deposited data

How the results depend on the processing

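Of 24743 genes, 45 passed the threshold (25 higher and 20 lower in dFLEx). With libraries as independent samples 3344 did, and with the duplicate number as a replicate block 2387. In that block, duplicates with the same number shared only a number (correlations of deviations −0.00303 to 0.0440). DESeq2 on tumor sums gave 1408, no filter 880, and a mean of at least 1 CPM 80. Leaving out each tumor gave 0 to 414: 0 without 170019 or 170024 in edgeR (1939 and 1414 at unadjusted p under 0.05), 9 without 170025, 8 without 3800 and 414 without 3802. A lone KP tumor was then assumed to vary as the dFLEx tumors did. The split was 25 higher and 20 lower with TMM, 14 and 20 with library totals, 17 and 33 with upper quartile scaling, and 25 and 24 with relative log expression. TMM raised the median log2 fold change by 0.30 over library totals. Other RGS-domain genes called were 0 in the fit described, 6 with independent libraries, 2 with the replicate block (Rgs1 and Rgs14) and 1 with no filter (Rgs7). For the G protein lists these were 0, 15, 7 and 2, and DESeq2 called 4. The median log2 fold change of the 10 Rgs genes was −0.80 to 0.57 with a tumor left out, and it was 0.57 without 3800. With each tumor left out in turn, single values ran from −1.11 (without 3802) to 1.47 (without 3800) for Rgs4, likewise from −2.76 to 0.24 for Rgs8, from −1.07 to 0.89 for Rgs19 and from −1.31 to 0.93 for Gpsm2. They ran from −3.07 (without 3800) to 0.41 (without 3802) for Rgs9, and from −0.015 (without 3802) to 1.97 (without 3800) for Gpsm1, and Rgs10 was 0.03 without 3802. Rgs2, Rgs3, Rgs5, Rgs16, Rgs17 and Rgs20 kept their sign in all 14 alternatives. Subtracting the receptor gene background, chosen after seeing the data, moved no member's ratio beyond its spread. The cause of these changes was not tested.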
